A study of Mus musculus with 6 samples.

Results

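The proteasome genes described here were 34 genes that encode the constitutive subunits of the proteasome and its PA28 activators, chosen by name: Psma1 to Psma7, Psmb1 to Psmb7, Psmc1 to Psmc6, 11 Psmd genes and Psme1 to Psme3. All 34 of 34 had a row among the 39179 gene identifiers of the expression table. RNA-Seq had been performed on B cells of Peyer's patches, which are lymphoid tissue of the gut wall, here from the ileum of wild-type C57BL/6 female mice aged 12 weeks. B cells sorted as Fas+GL7+ were the GC population, and those sorted as Fas-GL7- were the resting, or naive, population. Each population was measured in 3 pools of several mice, all mice were wild-type littermates, and no mutant or treated group was part of the comparison.

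The proteasome is the protease that breaks down proteins tagged with ubiquitin. Its barrel-shaped core is built of rings of alpha subunits, which gate the entrance, and rings of beta subunits, 3 of which cut proteins. A regulatory cap sits on the barrel: the base holds a ring of ATPases that unfold the substrate and pull it in, and the lid holds the enzyme that removes ubiquitin. PA28 activators can sit on the barrel in place of that cap. In B cells and other cells that respond to interferon gamma, the 3 cutting subunits can be replaced by inducible ones, which form the immunoproteasome and favor peptides for MHC class I. GC B cells are activated B cells that divide rapidly and mutate their antibody genes.

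Fas was at 114 ± 5.55 TPM (the share of a pool's transcripts, scaled to a total of 1000000; mean ± SD, n = 3 pools here and throughout) in GC B cells and at 3.22 ± 0.314 TPM in naive B cells; it encodes the surface receptor used in the gates. Estimated depth was about 9850000 to 15950000 reads per pool, approximate because only 66.3% to 72.7% of low values lay within 0.15 reads of a whole number. All 6 GC B cell markers were higher in GC B cells, and the 4 naive B cell markers with a value were lower. Of 5 general B cell markers, 4 were called lower and 1 higher in GC B cells, and their sum was 3884 to 3931 TPM in the GC pools against 5783 to 5913 TPM in the naive pools. All 5 T cell markers were under 2 TPM in every pool. The 7 intestinal epithelium markers summed to 60.1 to 131 TPM among GC pools and 181 to 216 TPM among naive pools, with 5 called lower and 1 called higher in GC B cells. The 4 plasma cell markers summed to 131 to 135 against 192 to 212 TPM. Of these, 3 were called lower and 1, Prdm1, higher in GC B cells. Xbp1 (104 against 120 TPM) and Irf4 (21.7 against 76.4 TPM) made up most of the sum. Sdc1 was at 1.51 against 3.19 TPM and Prdm1 at 5.01 against 0.955 TPM. The 5 myeloid markers summed to 14.1 to 17.3 against 9.23 to 14.2 TPM, with 1 called higher and 0 lower. That 1 was Cd68, at 13.1 ± 1.74 against 5.88 ± 1.05 TPM, which made up most of the GC sum. Lyz2 (1.28 against 3.30 TPM, not called) and Itgam (0.106 against 1.02 TPM, not tested) went the other way. The 4 stroma and endothelium markers summed to 22.6 to 24.5 against 122 to 132 TPM. Pecam1 made up nearly all of that sum, at 23.3 ± 1.22 against 126 ± 5.55 TPM. Cdh5 was at 0.467 ± 0.249 against 0.779 ± 0.235 TPM, with overlapping pools (not tested). Col1a1 and Col3a1 were below 0.1 TPM in every pool. The part of these other cells in the results below was not tested. In sorted bulk samples a different number of expressing cells and a different amount of RNA per cell cannot be told apart, and TPM gives shares of a pool's transcripts, not amounts per cell.

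The stretches below are chosen examples of short promoter sequences near the start of catalytic, structural and activator genes. They are shown because they hold letters that match a binding motif of a factor known to act on proteasome genes. For the antioxidant response element, the match nearest to the start among those that begin before it was printed. The transcription factors Nfe2l1 and Nfe2l2 bind the antioxidant response element, whose letters are TGANNNNGC, and interferon-responsive factors bind the interferon-stimulated response element, searched here by its core of GAAA, any 2 bases and GAAA. Both strands were searched in RefSeq windows of GRCm38.p6, from 250 bases before to 50 bases after a start site. The capitals mark the match. The start site of a window, meant by start here, was not always the first base of the gene. For Psmb6 the gene's listed position begins at 70525324, so the printed match lies inside the gene. Each stretch is written 5′ to 3′ on the gene's own strand; the first 5 hold the antioxidant response element, and the last holds the interferon element, read on the opposite strand.
Psmb5, chr14:54618024-54618052, minus strand: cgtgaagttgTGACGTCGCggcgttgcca
Psmb6, chr11:70525338-70525366, plus strand: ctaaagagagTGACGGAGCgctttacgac
Psmb3, chr11:97703414-97703442, plus strand: gcgttgacccTGAGAAAGCcagagccggt
Psmd12, chr11:107479490-107479518, plus strand: cctgagtggaTGAGCGGGCgacttccggt
Psma4, chr9:54950722-54950750, plus strand: gtgggcagacTGAGCCCGCcccagcactg
Psme1, chr14:55578493-55578522, plus strand: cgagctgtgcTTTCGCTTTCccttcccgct
Windows were available for 28 of the 34 genes (31 windows), and Psmb1, Psmb2, Psmb7, Psmc3, Psmd3 and Psmd7 had none in the table used. TGANNNNGC lay in 54.8% of the proteasome windows, in 15 genes, and in 41.3% of all 32851 windows, so it is a common run of letters. The interferon core lay in 3 genes, Psmb3, Psmd4 and Psme1 (9.68% of windows, against 3.44% of all windows). CCAAT, the box bound by NF-Y, lay in 35.5% of the proteasome windows, in 11 genes, against 37.4% of all windows. CACGTG, the E-box bound by Myc among others, lay in Psma4 and Psme3 (6.45%, against 7.15% of all windows). A match says only that the letters are present.

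Proteasome genes were expressed at higher levels in GC B cells than in naive B cells almost throughout the complex. Of the 34 genes, 32 were called higher in GC B cells, 0 were called lower and 2, the activators Psme1 and Psme2, were not called (limma on log2(TPM + 1), Benjamini-Hochberg adjusted p under 0.05 over 12785 genes). An unadjusted p under 0.05 was likewise reached by 32 genes, and the largest adjusted p among those called was 0.00923. The background was high: 35.5% of all tested genes were called higher in GC B cells and 30.1% were called lower. Among the 3199 genes whose mean level lay in the same range as the proteasome genes, 46.3% were called higher. The median log2 fold change of the 34 genes was 0.68, where that of all tested genes was 0.03 and that of genes at comparable levels was 0.14. In TPM the median ratio was 1.61.

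All 3 GC pools lay above all 3 naive pools for 33 genes, the exception being Psme1, while this held for 37.8% of all tested genes. The pools of 1 population differed little: the median coefficient of variation was 4.2% over the GC pools and 3.85% over the naive pools. The log2 fold change lay between 0.5 and 1.0 for 27 genes and above 1.0 for 1, Psmd14. It lay under 0.5 for 6 genes, Psma3, Psmb6, Psmd3 and the 3 activators. Of all tested genes, 22.2% had a log2 fold change above the median of the proteasome genes, so that many single genes changed more.

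**Figure D1:**
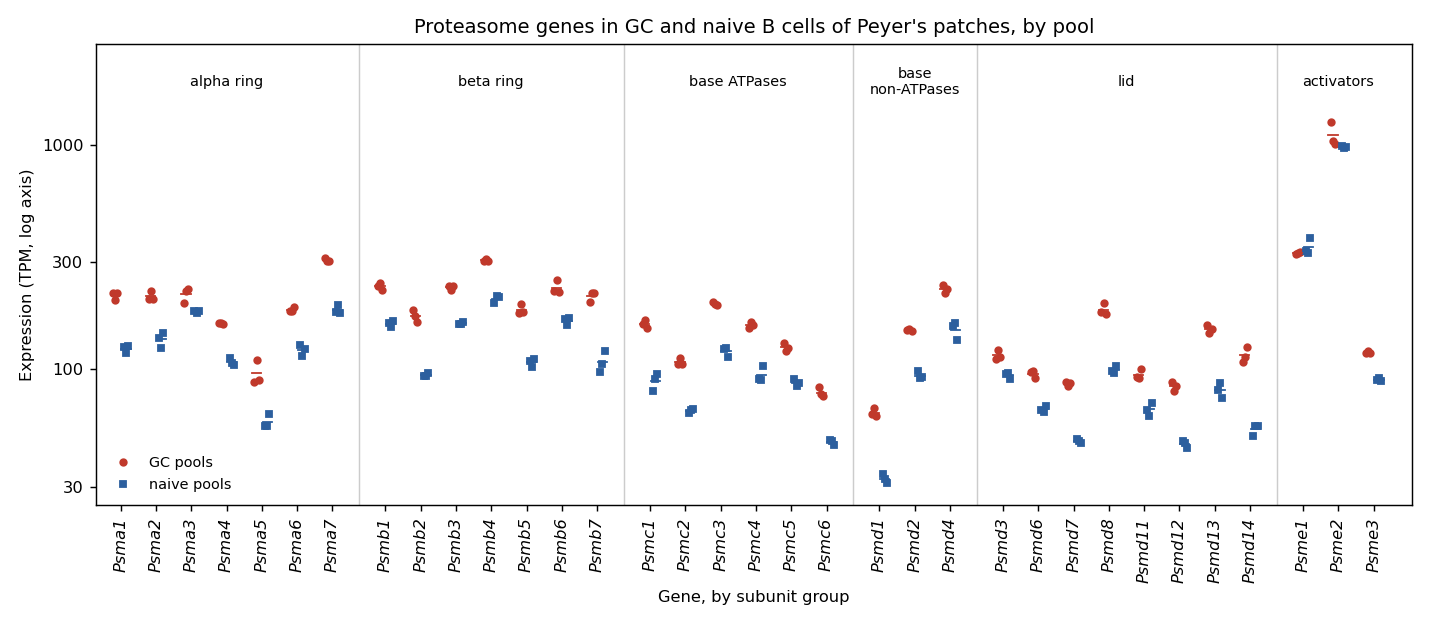
Expression of the 34 proteasome genes (TPM, log axis) in each of 3 GC pools (circles) and 3 naive pools (squares), by subunit group, with a short line at each mean. The circles lie above the squares for every gene except Psme1, and Psme2 is the highest gene in all pools.

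The alpha ring closes the ends of the barrel and opens when a cap or activator docks. All 7 of its genes rose, with a median log2 fold change of 0.64, and their summed level was 1388 ± 21.2 TPM in GC B cells against 911 ± 18.3 TPM in naive B cells, 1.52-fold higher. Psma1 (alpha6) rose most. Its level was 219, 203 and 218 TPM in GC B cells and 126, 119 and 126 TPM in naive B cells, with no overlap (log2 fold change 0.78 ± 0.05 SE, limma adjusted p = 2.37e-05). Psma7 (alpha4) was the most abundant alpha gene in every GC pool, at 313, 304 and 305 TPM, and was at 179.9, 193 and 178 TPM in naive B cells (log2 fold change 0.74 ± 0.04, limma adjusted p = 1.82e-05). Psma5 (alpha5) was the lowest alpha gene in every pool, at 88.0, 110.5 and 89.7 TPM against 55.9, 56.0 and 63.2 TPM. Its change was close to that of Psma7 but less precise (log2 fold change 0.70 ± 0.10, limma adjusted p = 0.00108).

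Psma3 (alpha7) rose least of the ring. It was at 198, 224 and 228 TPM in GC B cells and at 182, 178 and 182 TPM in naive B cells, so that the lowest GC pool stood just above the highest naive pool. Its log2 fold change was 0.26 ± 0.06 (limma adjusted p = 0.00923). This was the one call among the 32 that other processing ended: the log2 fold change was 0.13 (limma adjusted p = 0.122) after quantile normalization and 0.03 (limma adjusted p = 0.685) after correction for G+C content and transcript length. The other genes of the ring were Psma2, at 212 ± 10.3 against 136 ± 10.7 TPM, Psma4, at 160.1 ± 1.2 against 108 ± 4.44 TPM, and Psma6, at 184 ± 5.28 against 122 ± 7.20 TPM. These 3 genes had log2 fold changes of 0.64, 0.57 and 0.59.

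The beta ring holds the active sites. All 7 of its genes rose, with a median log2 fold change of 0.57, and the summed level was 1572 ± 34.8 TPM against 1000 ± 27.5 TPM, 1.57-fold higher. Psmb6 (beta1) carries the caspase-like site. It was at 223, 249 and 221 TPM in GC B cells and 167, 158 and 169 TPM in naive B cells, a log2 fold change of 0.48 ± 0.06 that was the smallest of the ring (limma adjusted p = 0.000478). Psmb7 (beta2; chromosome 2, 38588046 to 38643952, GRCm38.p6) carries the trypsin-like site. It was at 199.7, 218 and 218 TPM against 97.1, 105 and 121 TPM, and its log2 fold change of 0.97 ± 0.09 was the highest of the ring (limma adjusted p = 0.000107). Psmb5 (beta5; chromosome 14, 54614120 to 54617995), whose promoter stretch is printed above, carries the chymotrypsin-like site that proteasome inhibitors such as bortezomib block. It was at 177, 195 and 179 TPM against 108, 103 and 111 TPM (log2 fold change 0.77 ± 0.06, limma adjusted p = 4.04e-05). The log2 fold changes of the 3 catalytic genes differed in size, and the 95% intervals of Psmb6 (0.34 to 0.63) and Psmb7 (0.76 to 1.18) did not overlap.

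The 4 beta genes without an active site give the ring its shape. Psmb4 (beta7) was the most abundant beta gene in all 6 pools, at 306 ± 3.58 TPM against 206 ± 8.03 TPM. Psmb1 (beta6), at 234 ± 7.49 against 159.5 ± 5.20 TPM, and Psmb3 (beta3), at 232 ± 5.64 against 160.0 ± 1.74 TPM, rose by similar amounts, with log2 fold changes of 0.55 and 0.53 beside 0.57 for Psmb4. Psmb2 (beta4) changed more, from 94.2 ± 1.39 TPM in naive B cells to 173 ± 10.7 TPM in GC B cells (log2 fold change 0.87 ± 0.06, limma adjusted p = 2.27e-05). Within a pool the most abundant beta gene was 1.72 to 2.27 times the least abundant.

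The ATPases form the motor at the base of the cap. All 6 rose, with a median log2 fold change of 0.71, and their sum was 825 ± 12.7 TPM against 504 ± 6.73 TPM, 1.64-fold higher. Psmc1 (Rpt2) rose most. It was at 159, 166 and 153 TPM in GC B cells and 80, 90.6 and 95.3 TPM in naive B cells (log2 fold change 0.84 ± 0.07, limma adjusted p = 0.0001). Psmc5 (Rpt6) rose least, from 90.6, 84.0 and 86.7 TPM to 131, 120.5 and 125 TPM (log2 fold change 0.52 ± 0.05, limma adjusted p = 0.000197). The other 4 changed almost equally, with log2 fold changes of 0.71 (Psmc2), 0.70 (Psmc3), 0.73 (Psmc4) and 0.72 (Psmc6). Psmc3 was the highest and Psmc6 the lowest ATPase in all 6 pools, at 196 ± 2.84 and 78.8 ± 3.82 TPM in GC B cells, so the order of abundance at its ends was the same in both populations.

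The base also holds large scaffold subunits and a ubiquitin receptor. All 3 of the genes listed rose, with a summed level of 441 ± 7.10 TPM against 277 ± 16.5 TPM, 1.59-fold higher. Psmd1 (Rpn2), a scaffold, was the least abundant of the 34 genes in both populations, at 63.0, 67.3 and 62.1 TPM in GC B cells and 34.2, 32.5 and 31.1 TPM in naive B cells. It had the third highest log2 fold change of the 34, 0.96 ± 0.06 (limma adjusted p = 2.42e-05). Psmd4 (Rpn10), the ubiquitin receptor, was at 237, 218 and 227 TPM against 155, 161 and 134 TPM (log2 fold change 0.60 ± 0.08, limma adjusted p = 0.000602). Psmd2 (Rpn1), on which shuttle factors dock, was at 149.7 ± 0.991 TPM against 93.9 ± 3.58 TPM (log2 fold change 0.67 ± 0.04).

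The lid had the largest median change. All 8 of its genes rose, with a median log2 fold change of 0.84, and the summed level was 927 ± 5.37 TPM against 555 ± 1.53 TPM, 1.67-fold higher. Psmd14 (Rpn11; chromosome 2, 61711694 to 61800376) is the enzyme that cuts the ubiquitin chain off the substrate. It was at 108, 113 and 126 TPM in GC B cells and 50.4, 55.8 and 56.2 TPM in naive B cells, 2.14-fold higher, and had the largest log2 fold change of the 34 genes, 1.08 ± 0.08 (95% interval 0.89 to 1.27, limma adjusted p = 3.87e-05). Psmd7 (Rpn8), the inactive partner with which it forms a pair, was at 86.3 ± 1.79 TPM against 48.0 ± 1.12 TPM (log2 fold change 0.83 ± 0.05, limma adjusted p = 1.23e-05).

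The structural lid genes changed to different degrees. Psmd13 (Rpn9) was at 151 ± 6.18 against 80.6 ± 6.03 TPM, Psmd8 (Rpn12) at 185 ± 11.2 against 99.2 ± 3.67 TPM, and Psmd12 (Rpn5), whose promoter stretch is printed above, at 84.2 ± 4.0 against 46.5 ± 1.75 TPM. Their log2 fold changes were 0.90, 0.89 and 0.84. Psmd6 (Rpn7), at 95.5 ± 3.81 against 66.4 ± 2.11 TPM, and Psmd11 (Rpn6), at 94.5 ± 4.87 against 66.3 ± 4.38 TPM, changed less, by 0.52 and 0.50. Psmd3 (Rpn3) changed least. It was at 111, 122 and 114 TPM in GC B cells and 95.5, 96.2 and 90.7 TPM in naive B cells, again without overlap (log2 fold change 0.29 ± 0.05, limma adjusted p = 0.00289).

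**Figure D2:**
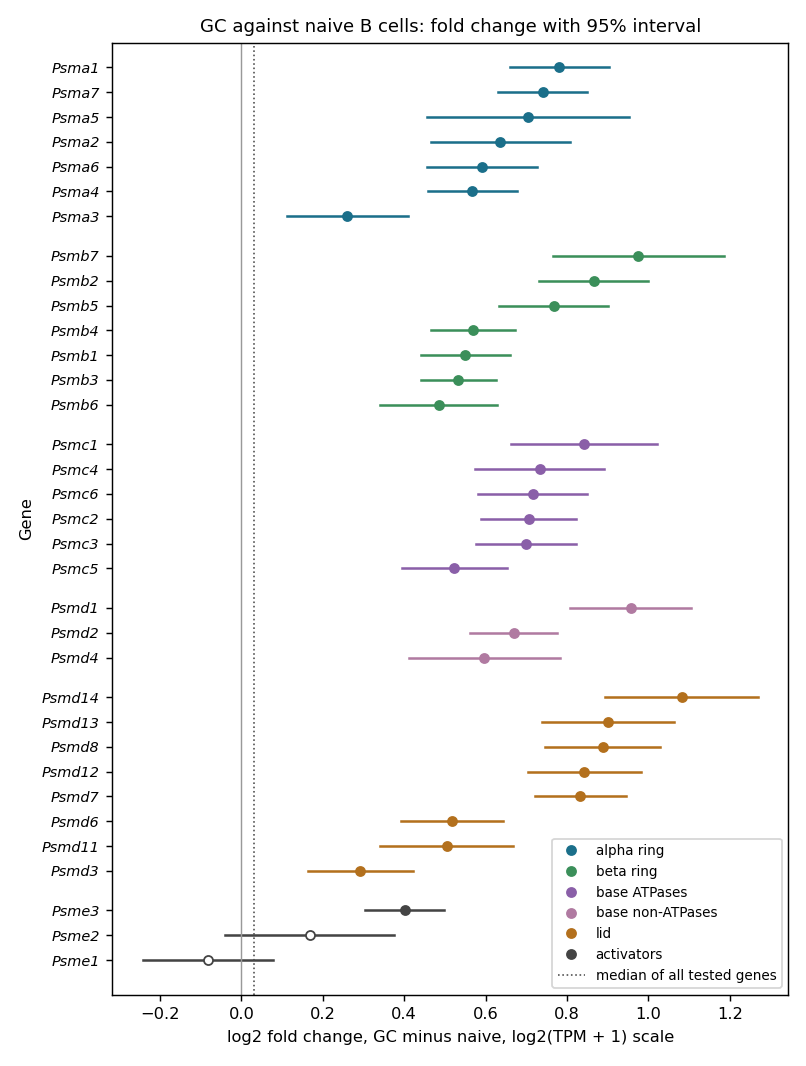
log2 fold change of each of the 34 genes on the log2(TPM + 1) scale (GC minus naive; points) with its 95% interval from limma (bars), sorted within each subunit group and colored by group. Filled points were called at an adjusted p under 0.05; the open points are Psme1 (-0.08) and Psme2 (0.17), whose intervals include 0, and the dotted line marks the median of all tested genes, 0.03.

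Of the 3 activators, 1 was called higher, a share near the 35.5% called higher among all tested genes. Psme1 and Psme2 encode the alpha and beta chains of PA28, the interferon-inducible activator linked with the production of MHC class I peptides, and Psme3 encodes PA28 gamma, a nuclear activator of the same family. Psme1 (chromosome 14, 55578494 to 55581527) was at 327, 329.8 and 331 TPM in GC B cells and 335, 328 and 385 TPM in naive B cells. The pools overlapped, and the log2 fold change was -0.08 ± 0.07 (95% interval -0.24 to 0.08, limma adjusted p = 0.310). After correction for G+C content and transcript length it was -0.14 and was called lower (limma adjusted p = 0.0249).

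Psme2 (chromosome 14, 55587440 to 55591101) was the most abundant of the 34 genes in every pool, at 1259, 1036 and 1006 TPM in GC B cells and 989, 963 and 974 TPM in naive B cells. GC replicate 1 was high, and the other 2 GC pools were close to the naive pools, though above them. The log2 fold change was 0.17 ± 0.09 (95% interval -0.04 to 0.38, limma adjusted p = 0.133) and 0.07 without GC replicate 1 (limma adjusted p = 0.227). The neighbors Psme1 and Psme2 lie 5.913 kb apart on chromosome 14, and within a pool Psme2 was 3.85, 3.14 and 3.04 times Psme1 in GC B cells and 2.95, 2.93 and 2.53 times in naive B cells. A named pseudogene, Psme2b-ps, was at 20.5, 24.9 and 21.6 TPM in GC B cells and 85.3, 78.8 and 66.4 TPM in naive B cells (limma adjusted p = 2.79e-05). RSEM divides reads shared by near-identical genes, so the split of reads between Psme2 and this copy is uncertain.

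Psme3 was the only activator called. It was at 118, 121 and 118 TPM in GC B cells and 89.4, 91.9 and 88.8 TPM in naive B cells (log2 fold change 0.40 ± 0.04, limma adjusted p = 0.000182). Its change was smaller than that of 29 of the 31 subunits, the exceptions being Psma3 and Psmd3. The 3 activators together summed to 1549 ± 135 TPM against 1415 ± 32.4 TPM, 1.09-fold higher on average, with overlapping SDs.

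**Figure D3:**
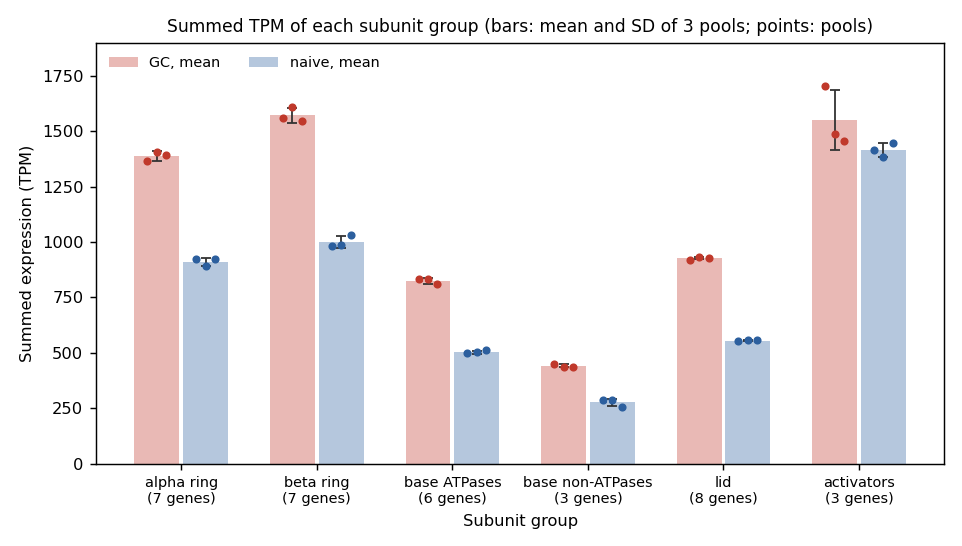
Summed expression (TPM, axis from 0) of the genes of each subunit group in GC and naive B cells; bars are means of 3 pools, error bars are SDs and points are pools. The GC sums stand above the naive sums without overlap in all 6 groups, by 1.52-fold to 1.67-fold for the 5 groups of subunits and by 1.09-fold for the activators.

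Over the whole set, the 34 genes made up 0.670% of all TPM in GC B cells (6702 ± 128 TPM) and 0.466% in naive B cells (4662 ± 61.6 TPM), 1.44-fold more. Without the activators, the 31 subunits summed to 5153 ± 55.1 TPM against 3247 ± 29.3 TPM, 1.59-fold more, with a median log2 fold change of 0.70. All 31 subunit genes were called higher. The sums are descriptions with no test.

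Subunits that occur in equal number in the complex did not have equal transcript levels. Within a pool, the highest gene was 2.75 to 3.55 times the lowest in the alpha ring, 2.40 to 2.60 times among the ATPases, 2.04 to 2.47 times in the lid and 3.24 to 4.96 times among the other base genes, where Psmd4 was always highest and Psmd1 always lowest. The order of levels was much the same in both populations (Spearman's rho 0.967 across the 34 genes, which share transcript lengths and library preparation in both). Most neighbors in this order could not be separated: 25 of 33 neighboring pairs overlapped between their pools in GC B cells and 24 of 33 in naive B cells. Psme2 and Psme1 at the top and Psmd1 at the bottom were separated from their neighbors in both populations.

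The constitutive catalytic genes were then set against the inducible genes that replace them. Psmb8 (beta5i) was more abundant than Psmb5 in every pool, at 602, 644 and 616 TPM in GC B cells and 483, 457 and 506 TPM in naive B cells (log2 fold change 0.36 ± 0.05, limma adjusted p = 0.000855). Psmb10 (beta2i) was at 116, 120.4 and 119 TPM against 118, 107 and 121 TPM, with overlapping pools (log2 fold change 0.04 ± 0.06, limma adjusted p = 0.551), a value that turned to -0.01 with FPKM as deposited and to -0.10 after quantile normalization. Psmb9 (beta1i) was not analysed here. The genes for the other special catalytic subunit and alpha subunit, Psmb11 of the thymus and Psma8 of the testis, were below 1 TPM in all pools.

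The ratio Psmb5/Psmb8 was 0.294, 0.302 and 0.291 in the GC pools and 0.224, 0.225 and 0.220 in the naive pools, 1.33-fold higher in GC B cells. Psmb7/Psmb10 was 1.72, 1.81 and 1.83 against 0.826, 0.982 and 0.999, 1.92-fold higher. The transcript for the constitutive beta2 subunit was thus above its inducible counterpart in all GC pools and below it, or level with it, in the naive pools. Psme3/Psme1 was 0.362, 0.366 and 0.357 against 0.267, 0.280 and 0.230, 1.4-fold higher. The ratios restate the changes of their single genes, and how often the ratios of other gene pairs separate was not computed. None of the 3 ratios overlapped between the populations. For each, the two-sided exact permutation test over the pools gave p = 0.1, the smallest value that 3 against 3 pools allow, and 0.1 after adjustment over the 3 ratios, so this test could not reach the threshold whatever the size of the difference.

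**Figure D4:**
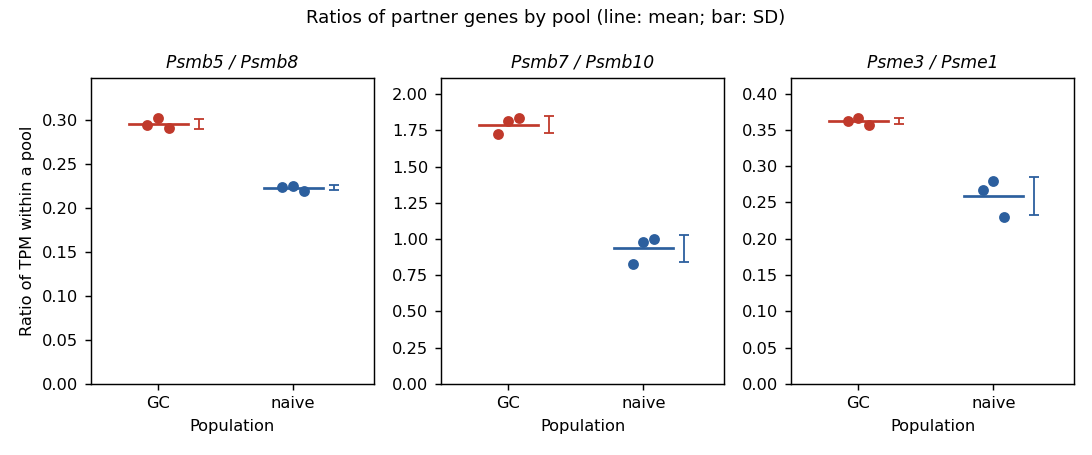
Ratio of the TPM of both genes named above each panel, within each pool, in GC and naive B cells; points are pools, lines are means, bars are SDs of 3 pools, and each axis starts at 0. The GC pools lie above the naive pools without overlap in all 3 panels, with means of 0.296 against 0.223 (Psmb5/Psmb8), 1.79 against 0.936 (Psmb7/Psmb10) and 0.362 against 0.259 (Psme3/Psme1).

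Other genes of the ubiquitin-proteasome pathway were called in both directions. Of 44 genes listed, 42 had a value and 40 were tested. Of these, 25 were called higher, 3 were called lower and 12 were not called, with a median log2 fold change of 0.26. These counts, and those of the lists below, stand beside 35.5% called higher and 30.1% called lower among all tested genes, and in a list of few genes a share near these is no result about the list. Among the 8 assembly chaperones tested, which build the barrel and cap, 7 were called higher. Pomp, which guides the beta rings together, was at 301, 290.1 and 269.8 TPM in GC B cells and 138, 121 and 139 TPM in naive B cells (log2 fold change 1.11 ± 0.07, limma adjusted p = 2.32e-05), a change close in size to that of Psmd14. Psmg4, a chaperone of the alpha ring, was at 32.4, 45.3 and 32.2 TPM against 46.1, 42.3 and 57.5 TPM (log2 fold change -0.41 ± 0.17, limma adjusted p = 0.0751). Without GC replicate 2 it was -0.56 and was called lower (limma adjusted p = 0.0161), and it was also called lower after quantile normalization (-0.50, limma adjusted p = 0.0493).

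Of the 6 remaining cap subunits and enzymes that bind the cap, 5 were called higher, with a median log2 fold change of 0.71. Uchl5, a deubiquitinase of the cap, was at 40.9, 42.9 and 41.7 TPM against 16.3, 17.1 and 16.7 TPM, with the largest log2 fold change of any gene in these lists, 1.28 ± 0.06 (limma adjusted p = 4.91e-06). Ube3c, a ubiquitin ligase found on the proteasome, was at 15.2, 14.9 and 14.6 TPM against 18.3, 15.8 and 15.2 TPM (log2 fold change -0.13 ± 0.09, limma adjusted p = 0.256). After correction for G+C content and transcript length it was -0.21 and was called lower (limma adjusted p = 0.0445).

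Among other activators and inhibitors, 1 of 3 genes was called, a share near that of all tested genes. Psme4, which encodes the large activator PA200, was at 19.3, 22.5 and 19.4 TPM against 20.6, 20.3 and 18.9 TPM (log2 fold change 0.03 ± 0.09, limma adjusted p = 0.775), with a sign that depended on the scaling. Psmf1, which encodes the inhibitor PI31, was at 37.6, 40.2 and 36 TPM against 28.3, 29.8 and 25.8 TPM and rose (log2 fold change 0.43 ± 0.08, limma adjusted p = 0.00293). Zfand5 was at 53.8 ± 4.03 against 58.5 ± 2.56 TPM (log2 fold change -0.12 ± 0.07, limma adjusted p = 0.183). It was called lower after quantile normalization (-0.25, limma adjusted p = 0.0148) and after correction for G+C content and transcript length (-0.33, limma adjusted p = 0.00614).

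Of 5 genes that control proteasome transcription, 2 were called lower and 1 higher, shares near those of all tested genes, with a median log2 fold change of -0.15. Nfe2l1, the factor that raises proteasome transcription when the proteasome is inhibited, was at 36.9, 36.7 and 35.7 TPM in GC B cells and 59.8, 58.3 and 52.6 TPM in naive B cells. It fell by 0.63 on the log2 scale (SE 0.06, limma adjusted p = 0.000208), in all 3 pools against all 3. Stat3 was at 79.8, 101 and 112 TPM against 150.2, 133 and 123 TPM (log2 fold change -0.48 ± 0.14, limma adjusted p = 0.0200). Ngly1, which removes sugars from Nfe2l1, was at 20 ± 1.5 against 14.8 ± 1.01 TPM (log2 fold change 0.41 ± 0.09, limma adjusted p = 0.00629). Nfe2l2 (log2 fold change -0.15, limma adjusted p = 0.110) and Ddi2, the protease that cleaves Nfe2l1 (0.12, limma adjusted p = 0.374), were not called. Proteasome genes whose promoter window held TGANNNNGC had a median log2 fold change of 0.71 (15 genes), and those whose window did not had 0.60 (13 genes), a description with no test in which the ranges overlapped (0.17 to 0.96 and -0.08 to 1.08).

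Shuttle factors carry ubiquitin-tagged proteins to the proteasome, and the segregase Vcp pulls them out of complexes and membranes. Of the 8 genes listed, 5 were called higher and 1 lower. Rad23b was at 132, 136 and 124 TPM against 70.4, 72.7 and 62.2 TPM (log2 fold change 0.93 ± 0.07, limma adjusted p = 5.79e-05), and Vcp was at 226 ± 3.80 against 119 ± 1.05 TPM (0.91 ± 0.04, limma adjusted p = 2.90e-06). Ubqln2 was at 17.4, 17.1 and 18.3 TPM against 23.9, 22 and 21.5 TPM and fell by 0.34 on the log2 scale (SE 0.07, limma adjusted p = 0.00659).

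Of 8 genes for ubiquitin and its activation, 5 were called higher, with small changes except that of Ube2l3, a ubiquitin-conjugating enzyme, at 132, 168 and 151 TPM against 75.5, 68.9 and 67.1 TPM (log2 fold change 1.08 ± 0.10, limma adjusted p = 0.000109). Ubb, a stress-responsive ubiquitin gene, was at 1327 ± 89.8 against 1150.4 ± 19.1 TPM, a log2 fold change of 0.20 ± 0.05 (limma adjusted p = 0.0155).

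**Figure D5:**
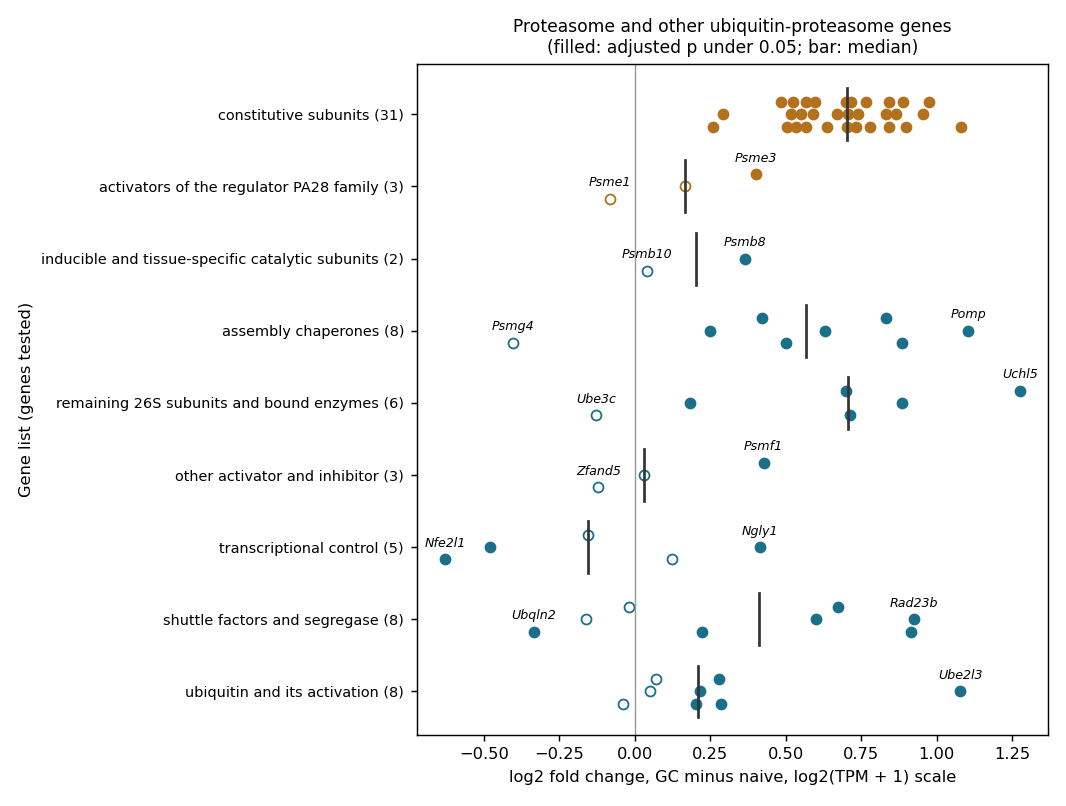
log2 fold change (GC minus naive, log2(TPM + 1) scale) of each gene tested, in 1 row for the 31 constitutive subunits, 1 for the 3 PA28 activators and 1 for each list of other ubiquitin-proteasome genes; filled points were called at an adjusted p under 0.05, open points were not, and vertical bars are medians. The subunits lie between 0.26 and 1.08 with a median of 0.70, while the lists range from Nfe2l1 at -0.63 to Uchl5 at 1.28.

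The 34 genes are spread over 14 chromosomes, with 7 on chromosome 11 and 5 on chromosome 14. Apart from Psme1 and Psme2, the closest pair of the set is Psmb4 and Psmd4, 145.7 kb apart on chromosome 3, with log2 fold changes of 0.57 and 0.60. Psmb5 lies 960.5 kb from Psme1 on chromosome 14, and Psmb3 lies 969 kb from Psmd3 on chromosome 11. The library kit and the alignment settings stated do not name a strand, so reads from a gene that overlaps 1 of these on the other strand could not be told apart. The named pseudogenes Psmb5-ps and Psmb6-ps were listed at 0 in all pools, and Psmb7-ps2 was below 1 TPM.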

How the data were processed

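Sequencing reads had been demultiplexed with CASAVA 1.8, checked with FastQC and trimmed with cutadapt 1.9, and the authors quantified them with RSEM 1.2.25 on the mouse transcriptome NCBIm38 (fragment length mean 180, SD 50). They deposited FPKM values per gene and pool; the submitters' notes also name edgeR, without saying for what. A value therefore depends on the transcript length that RSEM assigned and on its division of shared reads. No count could be recovered with confidence, so no count model was used.

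FPKM was rescaled to TPM per pool. The 12785 genes that reached 1 TPM in 3 pools or more were compared, GC against naive, by limma (version 3.58.1; lmFit followed by eBayes with its trend option; R 4.3.3) on log2(TPM + 1), without a replicate block, with Benjamini-Hochberg adjustment over all tested genes. The pseudocount understates changes of low genes. Other steps used Python 3.11.15, numpy 2.4.6, pandas 2.3.3, scipy 1.17.1 and matplotlib 3.10.9. On simulated data the fit was checked for the size of its estimates and for false calls only; it missed most small changes placed on genes of all levels, so a gene not called may still differ. Replicates were pools of several mice, and pool numbers were not treated as pairs, because the labels do not say that a number marks shared mice. The correlations of same-numbered pools were under 0.1 but all positive, and counts with a replicate block are given at the end.

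Symbols were paired with 33398 of 39179 identifiers. Psmb9, Paaf1 and Ighd were not paired with one and were not analysed here. A few genes the rule would name are not reported here. Positions and promoter windows came from RefSeq GRCm38.p6; G+C content and transcript length came from an NCBIM37 annotation and covered 86.3% of tested genes.

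The members and lists were chosen with earlier results of these data known. Values per pool are given for the catalytic subunits, Psmd4, Psmd14, the activators, the highest and lowest change in each group, members not called, and set genes of the related lists with the extremes of each; the other members are given as mean and SD. Others (such as Psma5, Psma7, Vcp, Stat3 and Ngly1) were named after their values were seen. Alternatives covered the pseudocount, the filters, FPKM as deposited, quantile and median-ratio scaling, immunoglobulin genes left out, G+C content and length, the replicate block and each pool left out in turn.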

Additional observations from a re-analysis of the deposited data

How the results depend on the processing

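Of 512 refits of the 32 called proteasome genes, 509 kept the call; the 3 exceptions were all Psma3, after quantile normalization and after correction for G+C content and transcript length with or without the replicate block (limma adjusted p = 0.714 with it). The number called higher was 31 or 32 throughout, and the median log2 fold change of the 34 genes was lowest, 0.55, after quantile normalization. The number called lower was 0 except after the G+C and length correction, where it was 1, Psme1, also with the replicate block (1, limma adjusted p = 0.0365). Over its 16 alternatives the limma adjusted p of Psme1 ranged from 0.0249 to 0.794, and that of Psme2 from 0.0639 to 0.499. Psma3 and Psme1 are thus the members whose call depended on that correction; its cause was not tested.

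Of the other ubiquitin-proteasome genes, 6 rather than 3 were called lower after quantile normalization, 5 after the G+C and length correction, also with the replicate block (5), and 2 to 5 when a pool was left out; the 5 came without GC replicate 2. Values near 0 changed sign. Psmb10 (0.04) was -0.011 with FPKM as deposited, -0.098 after quantile normalization and -0.0086 to 0.075 when a pool was left out. Psme4 (0.03) was -0.019 with FPKM as deposited, -0.032 after quantile normalization, -0.0083 after median-ratio scaling, -0.026 after the G+C and length correction, with or without the replicate block, and -0.039 to 0.067 when a pool was left out. The summed level of all 34 genes had a log2 ratio of 0.48 after median-ratio scaling, where it was 0.52 by TPM. Without GC replicate 1 the summed activators had a log2 ratio of 0.06, where it was 0.13 with all pools.

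Pools with the same number correlated at 0.083, 0.0225 and 0.0456 in their deviations from the group means, all positive. No limit for pairing had been set beforehand. The 6 pairs with different numbers lay between -0.0746 and 0.0298. Every pool correlated best with its own number except naive replicate 2, which correlated better with GC replicate 3 (0.0298), a hint from the data and not from the design. With the replicate block 32 members were called higher and 0 lower, and 4342 genes in all were called higher and 3618 lower, where the fit without it called 4540 and 3852. The ratio of Psmb6 to Psmb9 was not run because Psmb9 was not analysed here. Depth limits genes below about 1 TPM, such as Psmb11 and Psma8, which were not tested.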
